A study of Mus musculus with 4 samples.

Results

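Division of a cell is carried out by a set of proteins whose genes are transcribed together late in the cell cycle, and 77 such genes and their namesakes are described here in mouse thymus. They were chosen by symbol from a table of 10598 genes: kinesins with a number, centromere proteins, the BUB, MAD and TTK checkpoint genes, the Aurora and Polo kinases, condensin subunits, the NDC80 complex, the B cyclins, Ccna2, Cdk1, the CDC25 phosphatases, Cdc20, Tpx2, Incenp, Birc5, Mki67 and Top2a. All 77 passed the filter on low values (10 normalised counts or more on average), as did 10587 of all genes. By the roles assigned here, 61 are counted as genes of division. The other 16 are 10 kinesins of transport or other tasks and 6 further genes (Cenpj, Cenpv, Plk3, Plk1s1, Mad2l2 and Aurkaip1). They are kept apart by choice, though products of some, such as Kif2a, Cenpv and Plk1s1, have been placed at the spindle or centrosome. The split was made with earlier results of these data known, and contrasts between the 61 and the 16 depend on it.

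The 4 groups were wild-type C57BL/6J mice given N-methyl-N-nitrosourea (MNU), wild-type C57BL/6J mice given vehicle, CAMKIIgamma-/- mice on C57BL/6J given MNU and CAMKIIgamma-/- mice given vehicle, here called wild type or knockout, with or without MNU. MNU is an alkylating mutagen that induces T-cell lymphoma of the thymus, and it had been injected once into the abdomen at 75 mg/kg and 4 to 5 weeks of age, with a treatment time of 6 months. CAMKIIgamma is a calcium-dependent protein kinase encoded by Camk2g, and the question stated for the series is how its deletion acted against such lymphoma. The labels do not say whether a library came from 1 mouse or several, and they name neither the way the knockout was made nor the cell types in which the gene is lost.

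In background, a dividing cell enters mitosis when cyclin B binds and activates CDK1, condenses its chromosomes with condensin, and attaches them to spindle microtubules at the kinetochore, a stack of proteins built on centromeric chromatin. The spindle checkpoint holds back the ubiquitin ligase APC/C, through its activator CDC20, until every kinetochore is attached. Kinesins, motor proteins that walk on or shorten microtubules, build the spindle and the midzone. In the thymus, cortical thymocytes divide fast after their receptor beta chain is made and most then stop dividing, so these genes mark the dividing part of the tissue. In bulk tissue, more dividing cells and more of these transcripts per cell cannot be told apart.

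Promoters of these genes are known for a short element called CHR, to which the MuvB complex recruits repressors in resting cells and activators in dividing ones, and for CCAAT boxes bound by NF-Y. Promoter windows from RefSeq (GRCm38.p6, 250 bases before to 50 after the annotated start) were at hand for 65 of the 77 genes, and 130-base parts of 8 are printed 5′ to 3′ to show the elements that the division genes share. Capitals mark the letters TTTGAA or TTCGAA (CHR) and CCAAT, on either strand, and no base of these windows belongs to 2 of them. The first 6 hold both elements, Ccnb1 is shown for its CCAAT boxes alone, and Plk3 for neither.
Ccnb2 (chr9:70421525-70421654, minus strand): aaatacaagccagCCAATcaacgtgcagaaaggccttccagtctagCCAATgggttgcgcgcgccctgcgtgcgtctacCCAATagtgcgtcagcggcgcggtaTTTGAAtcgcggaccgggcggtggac
Cdc20 (chr4:118437314-118437443, minus strand): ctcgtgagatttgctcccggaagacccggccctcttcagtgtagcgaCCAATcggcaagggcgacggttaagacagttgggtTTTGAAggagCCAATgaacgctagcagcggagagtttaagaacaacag
Cdk1 (chr10:69352883-69353012, minus strand): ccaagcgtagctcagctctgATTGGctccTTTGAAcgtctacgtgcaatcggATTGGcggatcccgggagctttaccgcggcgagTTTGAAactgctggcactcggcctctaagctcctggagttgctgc
Kif18b (chr11:102925095-102925224, minus strand): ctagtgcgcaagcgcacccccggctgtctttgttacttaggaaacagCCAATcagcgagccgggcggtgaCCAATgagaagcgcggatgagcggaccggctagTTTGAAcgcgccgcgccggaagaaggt
Kif4 (chrX:100625965-100626094, plus strand): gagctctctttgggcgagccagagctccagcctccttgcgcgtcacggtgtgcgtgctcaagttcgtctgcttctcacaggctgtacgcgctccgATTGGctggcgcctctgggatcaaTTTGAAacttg
Mki67 (chr7:135716450-135716579, minus strand): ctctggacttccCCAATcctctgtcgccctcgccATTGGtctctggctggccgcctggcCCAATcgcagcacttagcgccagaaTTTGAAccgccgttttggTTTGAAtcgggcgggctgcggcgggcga
Ccnb1 (chr13:100786467-100786596, minus strand): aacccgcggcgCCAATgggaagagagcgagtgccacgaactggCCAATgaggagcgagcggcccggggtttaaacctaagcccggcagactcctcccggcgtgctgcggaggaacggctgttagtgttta
Plk3 (chr4:117133934-117134063, minus strand): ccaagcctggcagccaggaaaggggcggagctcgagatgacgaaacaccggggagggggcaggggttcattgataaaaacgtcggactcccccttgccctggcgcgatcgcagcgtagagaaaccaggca
Counted from 1 at the start, the CHR letters began at position 5 in Ccnb2, at 4 in Kif18b and at 20 in Kif4, and at -18 in Cdc20 and -15 in Cdk1, which has another match at -71. Ccnb2 has a further match outside the printed part. In Mki67 the matches began at -116 and -98. For Kif18b and Mki67 the start in the promoter table differs from that of the whole gene in the gene table.

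Of the 61 division genes 54 had a promoter, and 34 of those (63.0%) held CHR letters, against 1245 of 7453 measured genes with a promoter (16.7%), the division genes among them. Of the other 11 genes with a promoter, 0 held them. Of the mitotic kinesins with a promoter 9 of 10 held them, and of the transport and other kinesins 0 of 7. By role, the letters stood in 5 of 6 condensin genes, 5 of 8 checkpoint genes, 3 of 5 cyclin, Cdk1 and CDC25 genes, 3 of 5 outer kinetochore genes, 2 of 4 Aurora and Polo genes, both of Mki67 and Top2a, and 5 of 14 inner kinetochore genes. Within 50 bases of the start, 27 of 54 division genes held them, against 4.52% of measured genes. CCAAT letters were in 35 of 54 (64.8%) against 43.5%, both elements in 27 of 54 against 7.10%, and letters of an E2F site (TTTCCCGC or TTTCGCGC or TTTGCCGC or TTTGGCGC, either strand) in 10 of 54 (18.5%) against 4.99%. A match of letters is a description of the window and not of a bound site.

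**Figure D1:**
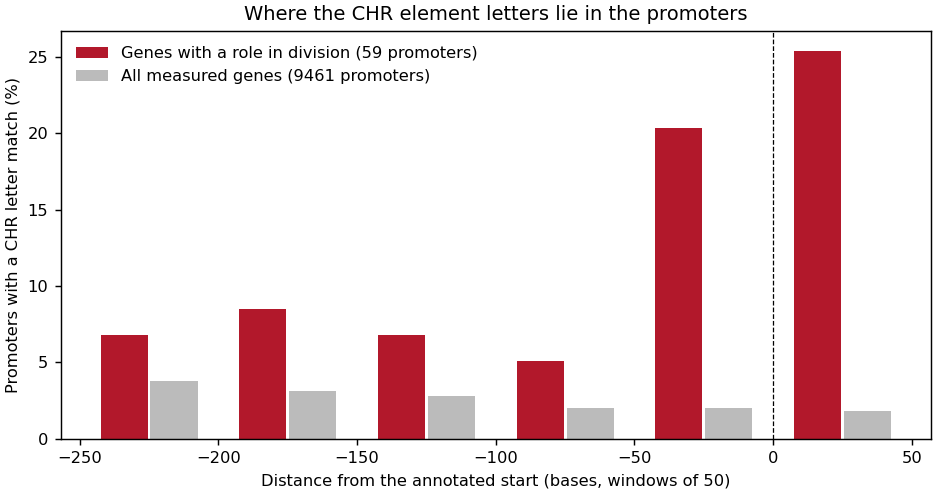
Share of promoters with CHR letters (%, vertical axis) in windows of 50 bases by distance from the annotated start (horizontal axis), for 59 promoters of the division genes (red) and 9461 promoters of all measured genes (grey). In the windows on either side of the start, 20.3% and 25.4% of division promoters have a match, against 1.99% and 1.84% of all.

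Each group was 1 library, so no difference below has a replicate check and no p-value is given. Values are the authors' normalised counts, here called units. The libraries summed to between 32911400 and 34836300 units. Camk2g had 29.7 units in knockout with MNU and 488.7 in knockout without MNU, against 3172.7 in wild type with MNU and 2748.8 in wild type without MNU. The knockout library without MNU held part of the profile of wild type with MNU: over the 42 genes that exceeded 1000 units in wild type with MNU and were over 20 times their level in wild type without MNU and in knockout given MNU, its excess was a median of 15.4% (13.2% to 21.4%) of that in wild type with MNU. For counts and medians over the genes that use that library, the value with the share subtracted is given as well, whereas single-gene levels are as deposited unless stated. With the share subtracted, Camk2g in knockout without MNU was below the 29.7 units of knockout with MNU. Differences are on the log2(value + 10) scale, genes are counted as higher or lower from 2-fold unless another threshold is named, smaller folds are given as values only, and fold values of single genes are ratios of the units.

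Cell types of the tissue differed between the libraries, and their part in the results was not tested. Of 9 thymocyte markers, all measured, the summed level was 181712 in wild type with MNU and 349709 in wild type without MNU, and 301176 in knockout with MNU and 245948 in knockout without MNU. Of the 9, 1 was at least 2-fold higher in wild type with MNU, Ptcra, the pre-T-cell receptor alpha chain, with 5295 units against 1288 without, and 2 were lower, among them the recombinase gene Rag1, with 32664 units against 123683. Cd3e, a subunit of the T-cell receptor complex, had 4920 units in wild type with MNU, against 9345 without. Of 9 thymic epithelial markers 8 were at least 2-fold lower in wild type with MNU, at a summed 2203 against 72558 units, with Foxn1 listed at 0. Of 5 measured fibroblast markers 4 were higher (summed 49644 against 16520), of 5 adipocyte markers all were lower (5342 against 36352, Lep listed at 0), of 4 measured B cell markers 3 were lower (1117 against 2374), of 5 measured macrophage markers 2 were higher (8793 against 5333) and of 4 measured neutrophil markers 3 were higher (1849 against 530). In knockout with MNU the summed levels were 57694 for epithelium, 14959 for fibroblasts, 11706 for adipocytes, 6087 for B cells, 9781 for macrophages and 1702 for neutrophils. In knockout without MNU they were 79408 for epithelium, 26673 for fibroblasts, 32376 for adipocytes, 3499 for B cells, 8527 for macrophages and 425 for neutrophils. The 2 measured erythroid genes of 5 summed to 18229 units in wild type with MNU, 29709 in wild type without MNU, 21460 in knockout with MNU and 10068 in knockout without MNU.

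MNU-treated wild-type thymus held more transcripts of nearly every division gene than untreated wild-type thymus, by less than 2-fold for most. Of the 61, 56 were above their level without MNU, with a median log2 difference of 0.65 and a range of -0.48 (Mad1l1) to 1.38 (Kif18b), where the median of all genes was -0.01 and 49.7% of them were above 0. At the 2-fold threshold 8 of 61 were higher and 0 lower, and with the other 16 genes 10 of 77 were higher and 2 lower, against 7.14% of all genes higher and 14.2% lower. At 1.5-fold 38 of 61 were higher (41 of 77), against 17.2% of all genes, and 0 of 61 lower (2 of 77), against 22.7%. The 61 genes summed to 373764 units (1.07% of the library) with MNU and 226106 units (0.679%) without MNU in wild type.

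**Figure D2:**
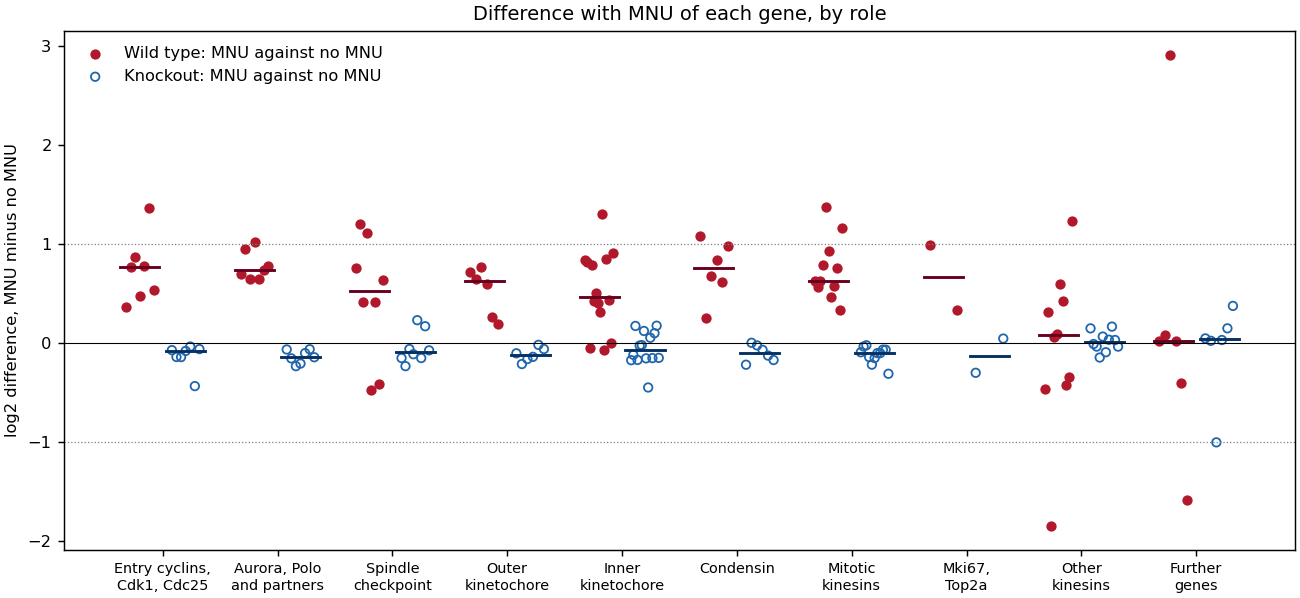
The log2 difference with MNU of each of the 77 genes (vertical axis), by role (horizontal axis), in wild type (filled red) and in knockout (open blue), with the median of each role as a bar and dotted lines at 2-fold. The wild-type medians of the 8 division roles lie between 0.47 and 0.77, those in knockout between -0.14 and -0.07 as deposited, and between -0.003 and 0.076 with the share subtracted from knockout without MNU (not drawn).

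The 7 genes that start mitosis were all above their level without MNU in wild type, with a median log2 difference of 0.77 over 7. Cdc25c, a phosphatase that activates CDK1, had 1400 units in wild type with MNU, against 535 in wild type without MNU, and 441 in knockout with MNU, against 600 in knockout without MNU. It was 2.61-fold higher with MNU in wild type. Ccnb2, a B cyclin, had 7708 units with MNU and 4211 without in wild type (1.83-fold), and 3784 with MNU and 4175 without in knockout. Ccnb1, the principal mitotic cyclin, had 5985 units with MNU and 3516 without in wild type (1.70-fold), and 3225 with MNU and 3556 without in knockout. For Cdc25b, another activating phosphatase, the values were 6485 and 3782 in wild type with and without MNU (1.71-fold), and 3738 and 3830 in knockout with and without MNU. Cdk1, the kinase itself, differed less, at 5233 units with MNU and 3603 without in wild type (1.45-fold) and 3285 with MNU and 3427 without in knockout. In each of these genes wild type with MNU was the high library, above the other 3. Cdc25a, a CDC25 phosphatase that also acts at entry to S phase, was 1.40-fold and Ccna2, the cyclin of S phase and early mitosis, 1.29-fold above the level without MNU in wild type. Ccna2 shares 10.4% of its exon bases with Exosc9.

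The Aurora and Polo kinases and their partners lay close together, with all 7 between 1.57-fold and 2.03-fold of their level without MNU in wild type (median log2 difference 0.74). Past 2-fold was 1 of the 7, against 7.14% of all genes, a count too small to set apart from that share. Incenp, the scaffold of the chromosomal passenger complex, had 12103 units with MNU and 5968 without in wild type (2.03-fold), and 5384 with MNU and 6217 without in knockout. Aurkb, the kinase of that complex, which corrects faulty attachments, had 5069 units with MNU and 2619 without in wild type (1.94-fold), and 2462 with MNU and 2741 without in knockout. Birc5, or survivin, another subunit, had 5971 units with MNU and 3811 without in wild type (1.57-fold), and 3461 with MNU and 4070 without in knockout. The passenger genes thus shared a direction but not a size. Tpx2, which activates Aurora A on the spindle, had 9381 units with MNU and 5460 without in wild type (1.72-fold), and 5139 with MNU and 5677 without in knockout. Aurka, the kinase of the spindle poles, had 3274 units with MNU and 2017 without in wild type (1.62-fold), and 1974 with MNU and 2065 without in knockout. Plk1, which acts at centrosomes, kinetochores and the midzone, had 3931 units with MNU and 2505 without in wild type (1.57-fold), and 2358 with MNU and 2530 without in knockout. Plk4, the kinase of centriole duplication, was 1.67-fold higher in wild type with MNU.

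Spindle checkpoint genes did not move as 1 block. Bub1b, which encodes the inhibitor BUBR1, had 12698 units with MNU and 5495 without in wild type (2.31-fold), and 5464 with MNU and 6425 without in knockout. Cdc20, the activator that the checkpoint restrains, had 6880 units with MNU and 3176 without in wild type (2.17-fold), and 3133 with MNU and 3388 without in knockout. Mad1l1, which carries MAD2 to unattached kinetochores, was on the other side of 0: it had 2729 units with MNU and 3802 without in wild type, and 3393 with MNU and 2889 without in knockout. Its ratio in wild type was 0.718, and that of Mad2l1bp, whose product takes the checkpoint complex apart, was 0.749 (753 units with MNU and 1006 without), both within 2-fold. Bub1, a kinase that recruits the other checkpoint proteins, had 3631 units with MNU and 2144 without in wild type (1.69-fold), and 2114 with MNU and 2349 without in knockout. Smaller folds in wild type were those of the kinase Ttk (1.56-fold), Bub3 (1.34-fold) and Mad2l1 (1.33-fold). Mad1l1 and Mad2l1bp had 2889 and 760 units in knockout without MNU, near their values in wild type with MNU.

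Outer kinetochore genes had a median log2 difference of 0.62 in wild type. At 2-fold 0 of 6 were higher, against 7.14% of all genes, and 6 genes are too few to differ from that share. The NDC80 complex, which holds the microtubule, was uneven: Ndc80 was 1.71-fold and Nuf2 1.51-fold higher with MNU, but Spc24 1.20-fold and Spc25 1.14-fold. Ndc80 had 2344 units with MNU and 1367 without in wild type, and 1496 with MNU and 1675 without in knockout. Spc25 had 2189 units with MNU and 1916 without in wild type, and 1738 with MNU and 1812 without in knockout. Per kilobase of the longest coding transcript (GENCODE M21), the 4 subunits stood at 1065 (Ndc80), 1096 (Nuf2), 1217 (Spc24) and 1434 (Spc25) units in wild type with MNU, and at 621, 724, 1013 and 1255 in the same order of genes in wild type without MNU. The highest subunit was thus 1.35 times the lowest with MNU and 2.02 times without. The other complexes compared in this way went the opposite way in wild type. The ratio was 4.81 with MNU and 3.65 without for condensin I, and 2.95 and 2.01 for condensin II. It was 2.09 and 1.61 for the passenger complex, 4.21 and 3.34 for cyclin B with Cdk1, and 8.55 and 7.74 for the inner kinetochore. In knockout the inner kinetochore ratio was 8.89 with MNU, above that of wild type with MNU, and 7.89 without. For the other complexes named after NDC80, wild type with MNU had the highest ratio of the 4 libraries. The ratios depend on the transcript chosen. The longest has 4143 bases for Cenpw and 4375 for Cdk1, the lowest genes of their complexes, and other lengths were not tested. Cenpe, a kinesin that brings chromosomes to the spindle equator, had 6213 units with MNU and 3761 without in wild type (1.65-fold), and 3940 with MNU and 4233 without in knockout. Cenpf, a large coiled-coil protein of the outer plate, had 6824 units with MNU and 4337 without in wild type (1.57-fold), and 3944 with MNU and 4570 without in knockout.

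The 14 genes of the centromere and inner kinetochore had a median log2 difference of 0.47 in wild type, with a range of -0.07 (Cenpo) to 1.30 (Cenpn). Cenpn, which reads the CENP-A nucleosome, had 2019 units with MNU and 813 without in wild type (2.48-fold), and 710 with MNU and 973 without in knockout. Cenpw, a histone-fold partner of CENP-T, had 553 units with MNU and 290 without in wild type (1.91-fold), and 259 with MNU and 289 without in knockout. Cenpp had 817 units with MNU and 449 without in wild type (1.82-fold), and 401 with MNU and 447 without in knockout, but 27.5% of its exon bases are shared with Ippk. Cenpa, the histone H3 variant that marks the centromere, was 1.79-fold, Cenpb, which binds centromeric repeats, 1.77-fold and Cenph 1.73-fold higher with MNU. In wild type 3 of the 14 genes did not exceed their level without MNU: Cenpt had 980 units with MNU and 982 without, Cenpc1 1560 and 1609, and Cenpo 1426 and 1500, the last sharing 24.3% of its exon bases with Adcy3. CENP-T and CENP-C are the proteins that link the centromere to the outer kinetochore, whose own 6 genes ran from 1.14-fold to 1.71-fold. The remaining 5 (Cenpk, Cenpq, Cenpi, Cenpl and Cenpm) were up to 1.43-fold higher.

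Condensin genes had a median log2 difference of 0.76. Ncapd2, a subunit of condensin I, had 29189 units with MNU and 13792 without in wild type (2.12-fold), and 12841 with MNU and 14946 without in knockout. Ncapd3, its counterpart in condensin II, had 6720 units with MNU and 5631 without in wild type (1.19-fold), and 5364 with MNU and 5353 without in knockout. The split did not follow the complexes: the condensin II genes Ncaph2 and Ncapg2 had larger folds than the condensin I genes Ncapg (1.61-fold, with 20.8% of exon bases shared with Lcorl) and Ncaph (1.54-fold). Ncaph2 had 11904 units with MNU and 6034 without in wild type (1.97-fold), and 5838 with MNU and 6575 without in knockout. Ncapg2 had 7613 units with MNU and 4252 without in wild type (1.79-fold), and 4075 with MNU and 4274 without in knockout. Ncaph2 shares 25.0% of its exon bases with Sco2 and 16.1% with Tymp, and the sources used here do not say whether reads were counted by strand.

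All 11 mitotic kinesins lay above their level without MNU in wild type, with a median log2 difference of 0.63. Of the 11, 2 were past 2-fold and 7 past 1.5-fold, against 7.14% and 17.2% of all genes higher. Kif18b, which trims the astral microtubules, had 4857 units with MNU and 1860 without in wild type (2.61-fold), and 2019 with MNU and 2350 without in knockout. Kif4, a chromokinesin that acts with condensin and at the midzone, had 4891 units with MNU and 2171 without in wild type (2.25-fold), and 2088 with MNU and 2591 without in knockout. Kif20a, the midzone kinesin that cytokinesis needs, had 6801 units with MNU and 3559 without in wild type (1.91-fold), and 3546 with MNU and 3939 without in knockout. These 3 led the group, and the values of Kif20a and Kif4 carry a limit, since 31.8% and 15.1% of their exon bases are shared with Cdc23 and Pdzd11. Kif18a and Kif23 followed at 1.73-fold and 1.69-fold. Kif11, the motor that pushes spindle poles apart, had 14148 units with MNU and 9131 without in wild type (1.55-fold), and 8862 with MNU and 9454 without in knockout. Kif2c, which shortens microtubules at the centromere, was the least changed at 1.26-fold.

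Mki67, the gene of the proliferation antigen Ki-67, had 53226 units with MNU and 26753 without in wild type (1.99-fold), and 24919 with MNU and 30693 without in knockout. Top2a, the topoisomerase that untangles sister chromatids, had 30123 units with MNU and 23844 without in wild type (1.26-fold), and 24172 with MNU and 23420 without in knockout. Both are used as markers of dividing cells, and they gave folds of different size in the same pair of libraries.

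**Figure D3:**
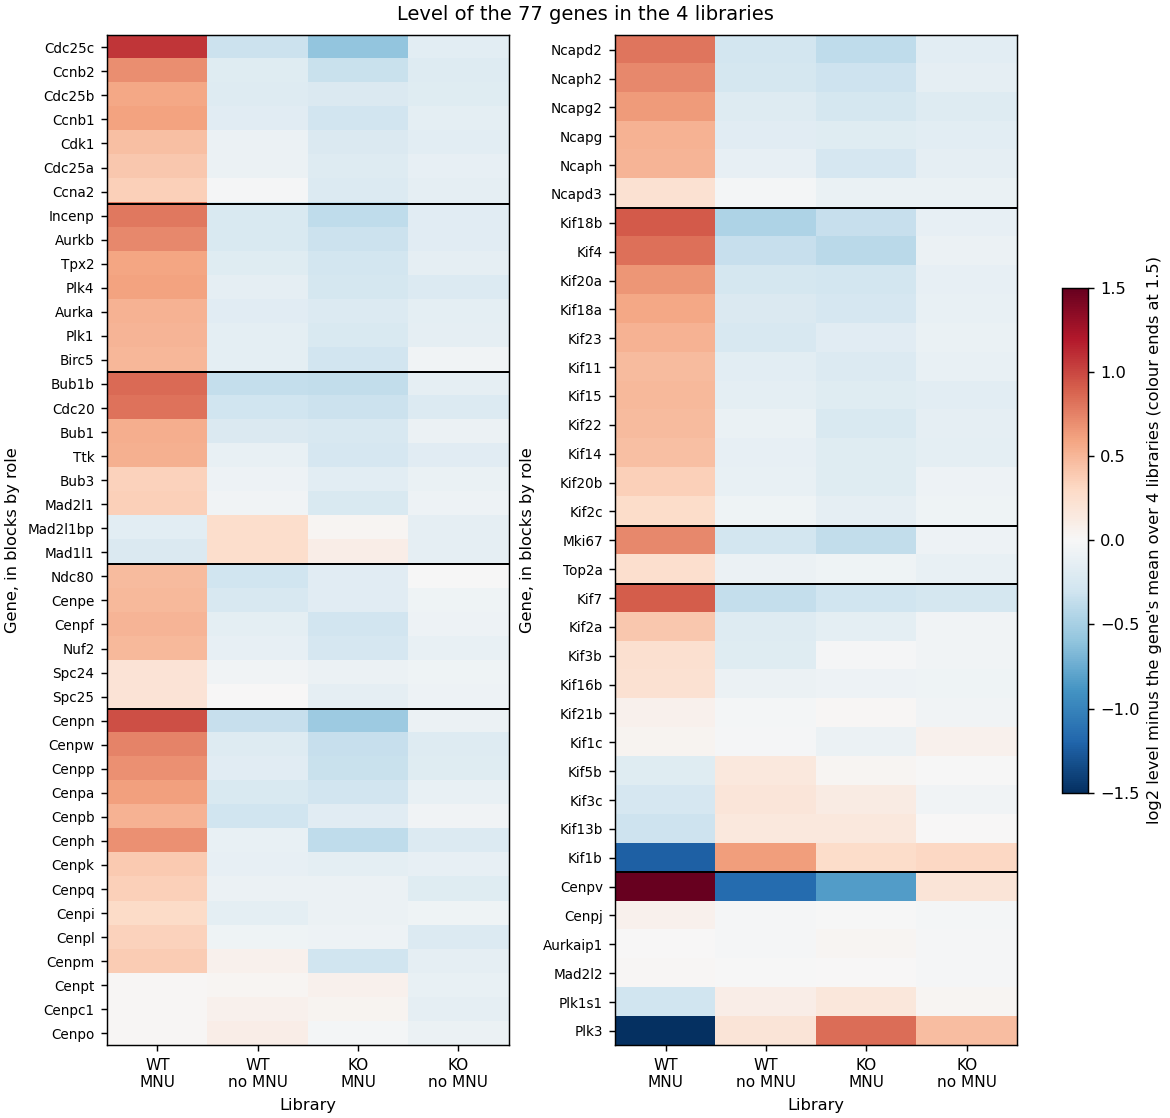
Log2 level of each of the 77 genes (rows, in blocks by role) in each library (columns), as the difference from the gene's mean over the 4 libraries. Wild type with MNU is the highest library for 56 of the 61 division genes, against 44.4% of all genes. The lower blocks on the right hold kinesins and further genes, of which it is the highest for 8 of 16.

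The other 16 genes had a median log2 difference of 0.04 in wild type, with 10 above 0 and both large increases and large decreases. Kif1b, a kinesin that carries synaptic vesicle precursors and mitochondria, had 1024 units with MNU and 3723 without in wild type (3.63-fold lower), and 2918 with MNU and 2991 without in knockout. Kif7, which regulates hedgehog signalling at the tip of the cilium, had 1189 units with MNU and 498 without in wild type (2.39-fold higher), and 518 with MNU and 531 without in knockout. Plk3, a stress-responsive Polo kinase unlike Plk1, had 99.3 units with MNU and 318 without in wild type (3.20-fold lower), and 500.5 with MNU and 383 without in knockout. Wild type with MNU was thus the lowest library for Kif1b and Plk3 and the highest for Kif7. Cenpv had the largest difference of the 77: it had 1845 units with MNU and 236 without in wild type (7.82-fold higher), and 294 with MNU and 600 without in knockout. Plk1s1, whose product is a centrosomal substrate of PLK1, had 531 units with MNU and 704 without in wild type, and 740 with MNU and 666 without in knockout. The human product of Cenpv has been placed at kinetochores and the spindle midzone. Kif2a, which also works at spindle poles, had 3249 units with MNU and 2147 without in wild type (1.51-fold), and 2227 with MNU and 2375 without in knockout. It shares 13.2% of its exon bases with Dimt1. Kif13b, Kif3c and Kif5b, all transport kinesins, had ratios of 0.722, 0.742 and 0.785. Kif21b, a kinesin that limits microtubule growth, had 19515 units with MNU and 18317 without in wild type, and 18819 with MNU and 17979 without in knockout. Cenpj and Aurkaip1 (ratios 1.06 and 1.02) and Mad2l2 (1.01), a subunit of a DNA polymerase that shares a fold with MAD2, were near their level without MNU in wild type.

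**Figure D4:**
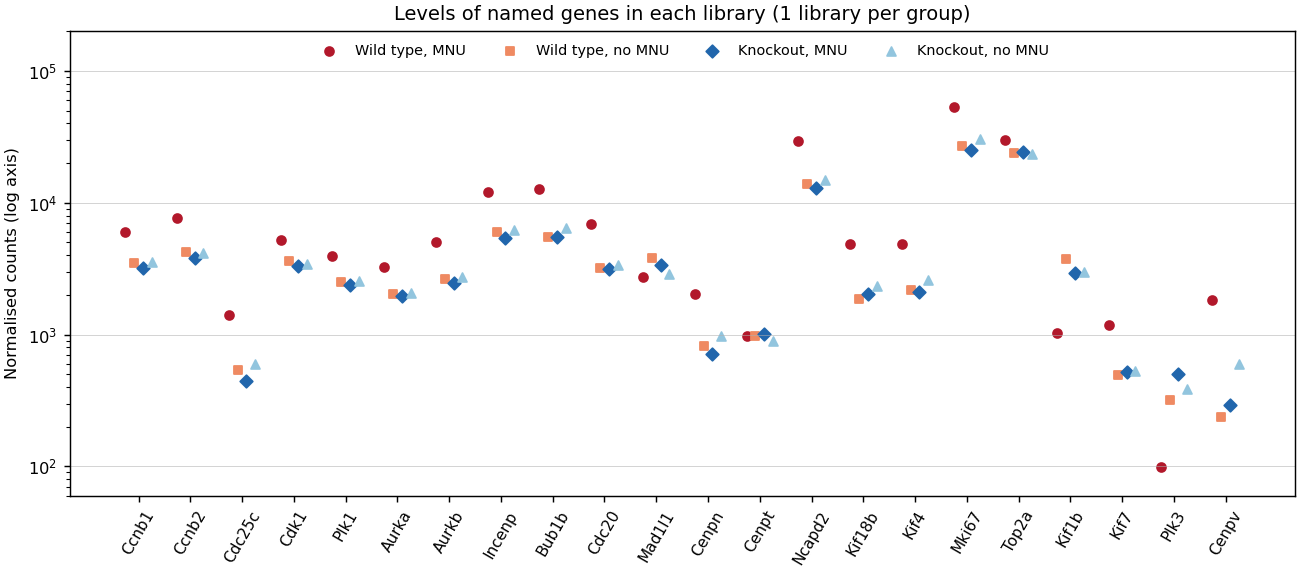
Normalised counts (vertical log axis) of named genes in the 4 libraries (1 point each), from genes that start mitosis on the left to kinesins and further genes on the right. Wild type with MNU stands above the other 3 for most, level with them for Cenpt, and below them for Mad1l1, Kif1b and Plk3.

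In the knockout, MNU went with differences under 1.5-fold in all 61 division genes, and their sign depended on the share. As deposited, of the 61, 9 were above 0, with a median log2 difference of -0.10 and a range of -0.45 (Cenpn) to 0.23 (Mad1l1), where all genes had a median of 0.01 and 52.9% above 0. 0 of the 61 passed 2-fold or 1.5-fold (at 1.5-fold 5.73% of all genes were lower and 1.45% higher), and of the 77 genes 0 were higher and 1 lower, Cenpv (ratio 0.490), against 0.331% of all genes higher and 2.95% lower. That comparison rests on the knockout library without MNU. With the share of the wild-type MNU profile subtracted there, the median of the 61 was 0.052, 48 of 61 were above 0, and the range was -0.14 to 0.25. The median of all genes was then 0.041, with 6467 of 10587 above 0. Of the 77 genes 0 passed 2-fold or 1.5-fold. Of all genes 42 were higher and 198 lower at 2-fold, and 1.19% were higher and 4.93% lower at 1.5-fold. As deposited, knockout with MNU was the lowest of the 4 libraries for 46 of 61 division genes, against 21.7% of all genes. With the share subtracted it was so for 12 of 61 (19.7%), against 13.4% of all genes. Knockout without MNU was then the lowest for 42 of 61, against 29.1% of all genes. Mki67 in knockout without MNU was 30693 units as deposited and 26600 with the share subtracted, beside 24919 in knockout with MNU.

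Between genotypes after MNU, knockout had less of nearly all division genes than wild type. The median log2 difference over the 61 was -0.73 (range -1.64 for Cdc25c to 0.31 for Mad1l1), where all genes had a median of 0.01. At the 2-fold threshold 15 of 61 were lower and 0 higher, and of the 77 genes 17 were lower and 2 higher, against 7.37% of all genes lower and 15.0% higher. At 1.5-fold 46 of the 77 were lower and 2 higher, against 17.1% and 23.5% of all genes. The 15 were Cdc25c, Ccnb2, Aurkb, Incenp, Bub1b, Cdc20, Cenpn, Cenph, Cenpp, Cenpw, Ncapd2, Ncaph2, Kif18b, Kif4 and Mki67. Cdc25c was 3.17-fold, Cenpn 2.84-fold and Kif18b 2.41-fold lower in knockout with MNU than in wild type with MNU, and Mki67 2.14-fold. Cenph, a partner of CENP-K and CENP-I, had 506 units in knockout with MNU and 1058 in wild type with MNU (2.09-fold lower), and 570 in knockout without MNU and 610 in wild type without MNU. Of the others, Plk3 was 5.04-fold and Kif1b 2.85-fold higher, and Cenpv 6.27-fold and Kif7 2.30-fold lower. This comparison shares its wild-type library with the one of MNU in wild type, so the same high library enters both.

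Against wild type without MNU, the knockout thymus with MNU was nearly level, a comparison that uses neither wild type with MNU nor knockout without MNU. The 61 division genes had a median log2 difference of -0.07 and a range of -0.35 (Cenpm) to 0.14 (Cenpb), and 0 of 77 genes passed 2-fold in either direction, against 1.57% of all genes higher and 1.11% lower. At 1.5-fold 1 was higher, Plk3, and 0 lower, against 4.09% and 2.83% of all genes. Of the 61, 9 were above 0 and 52 below, whereas 50.6% of all genes were above 0. The 61 genes summed to 215739 units (0.649% of the library) in knockout with MNU and 226106 (0.679%) in wild type without MNU. Genes that rise and fall with the same cells are not separate measurements, and with 1 library a group a common shift of this size has no error estimate. Cenpm had 362 units in knockout with MNU, against 463 in wild type without MNU, and Cdc25c had 441 against 535. Kif18b, Cenpb and Ndc80 lay on the other side, with log2 differences of 0.12, 0.14 and 0.13.

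Without MNU, the genotypes differed little. The 61 genes had a median log2 difference of 0.01, knockout minus wild type, with a range of -0.40 (Mad2l1bp) to 0.34 (Kif18b), and 34 were above 0, against 49.9% of all genes. Of the 77 genes 1 was higher and 0 lower at 2-fold, against 2.59% of all genes higher and 0.359% lower, and that gene was Cenpv (2.54-fold). At 1.5-fold the counts were also 1 and 0, against 5.71% and 1.49% of all genes. They stayed at 1 and 0 with the share subtracted, against 5.27% and 1.68% of all genes. With the share of the wild-type MNU profile subtracted, Cenpv in knockout without MNU stood at 374 units, against 600 as deposited and 236 in wild type without MNU. Then 0 of 77 passed 2-fold, where 182 of all 10587 genes were higher and 53 lower. The median of the 61 was then -0.14 and 6 were above 0, where the median of all genes was -0.03 and 4523 of 10587 were above 0. For the 12 genes past 2-fold with MNU in wild type, the excess in knockout without MNU over the mean of the libraries of wild type without MNU and MNU-treated knockout was 3.41% (Kif7) to 21.2% (Cenpv) of the excess in wild type with MNU, and for Mki67 it was 17.7%. Over the 3 libraries other than wild type with MNU, the highest value of a division gene was a median of 1.105 times the lowest and at most 1.37 times (Cenpn) as deposited, and a median of 1.12 and at most 1.32 times (Mad2l1bp) with the share subtracted. The medians over all genes were close to these, at 1.145 as deposited and 1.143 with the share subtracted.

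Genes of the same pathway that the symbols do not reach were also mostly above their level without MNU. Of 94 measured, 12 passed 2-fold upward and 1 downward with MNU in wild type, beside 7.14% and 14.2% of all genes, and 74 were above 0 with a median log2 difference of 0.48. Gtse1, a microtubule-associated regulator of G2 and mitosis, had 4452 units with MNU and 1364 without in wild type (3.26-fold higher). Racgap1, which builds the midzone with Kif23, was 2.54-fold, Espl1, or separase, which cuts cohesin, 2.47-fold, and Rad21, the cohesin subunit that separase cuts, 2.22-fold higher. Pmf1, of the MIS12 kinetochore complex, was 2.31-fold and Nek2, a centrosome kinase, 2.21-fold higher. Among factors that drive transcription of these genes, Mybl2, or B-MYB, had 3531 units with MNU and 1621 without in wild type (2.18-fold), and 1628 with MNU and 1812 without in knockout. E2f2, of the E2F family, had 3454 units with MNU and 14766 without in wild type (4.28-fold lower), and 11523 with MNU and 9196 without in knockout. Foxm1, the forkhead activator of G2 and mitosis genes, had 9777 units with MNU and 4517 without in wild type (2.16-fold), and 4097 with MNU and 4828 without in knockout. The lists differed in their medians: 0.84 for passenger, shugoshin and separase genes, 0.73 for spindle and cytokinesis genes, 0.71 for kinetochore assembly genes, 0.45 for other regulators of entry, 0.41 for transcription factors, 0.37 for cohesin and SMC genes and 0.18 for the anaphase-promoting complex, whose 15 genes had 0 past 2-fold.

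Position in the genome was looked up in the RefSeq gene table of GRCm38.p6, since the authors' build is mm9, and 10510 of 10587 genes had a chromosome there. In wild type, all 445 measured genes of chromosome 15 had a median log2 difference of 0.40 with MNU (83 of them, 18.7%, at least 2-fold higher), and chromosome 18 had 0.16 (256 genes), whereas the other chromosomes lay between -0.09 and 0.08. The 2 division genes on chromosome 15 were Ncaph2 and Cenpm, and the 4 pathway genes there, Gtse1, Racgap1, Espl1 and Rad21, were all past 2-fold. On chromosome 18 lie Cdc25c and Kif20a. The remaining 57 division genes are on chromosomes whose median was near 0, and the division medians by chromosome ran from 0.32 (chromosome 5) to 0.80 (chromosomes 11 and X) outside chromosomes 15 and 18. In knockout with MNU against wild type without MNU, the chromosome 15 median was 0.00, and in knockout without MNU against wild type without MNU it was 0.09 as deposited and -0.03 with the share subtracted. The part of the chromosome 15 shift in the values of Ncaph2, Cenpm and the 4 pathway genes was not tested.

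**Figure D5:**
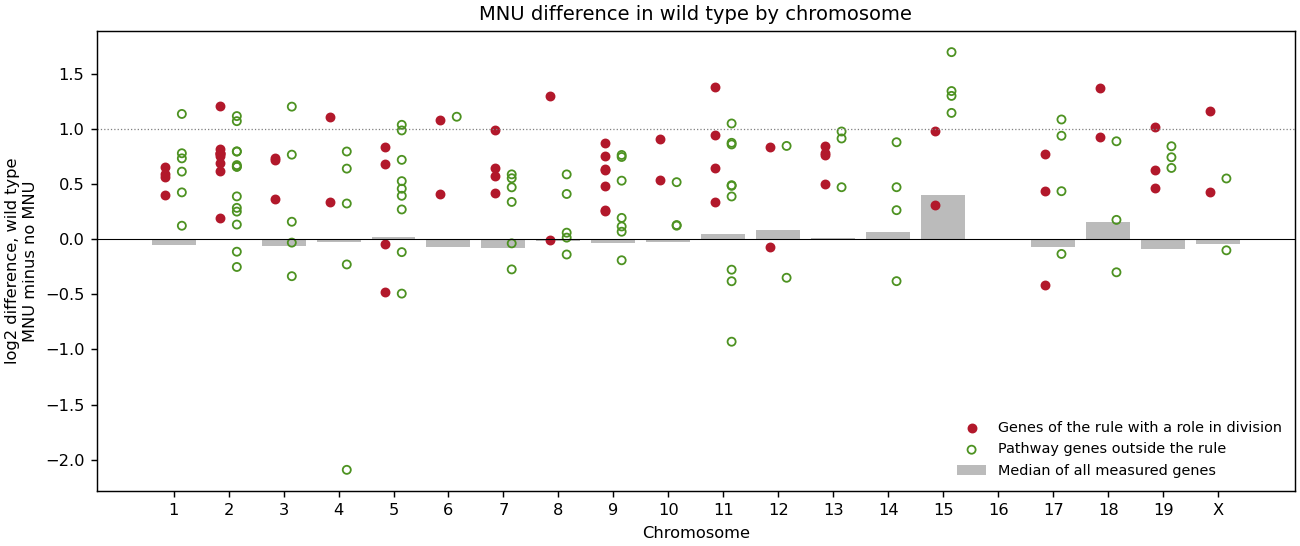
The log2 difference with MNU in wild type (vertical axis) by chromosome (horizontal axis): the median of all measured genes (grey bars), the 61 division genes (red) and 94 further pathway genes (open green), with a dotted line at 2-fold. Chromosome 15 has the highest bar, at 0.40, and 56 of the 61 division genes lie above 0, the other 5 being on chromosomes 5, 8, 12 and 17.

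Among the division genes, those with CHR letters in the promoter were all above 0 in wild type with MNU, 34 of 34, with a median log2 difference of 0.69 and a range of 0.19 to 1.38. The 20 with a promoter but no such letters had a median of 0.55, a range of -0.48 to 0.85, and 15 above 0. Over all measured genes the medians were 0.06 with the letters (1245 genes) and -0.02 without them (6208 genes). Both printed cyclin promoters belong to genes above 0, Ccnb2 with the letters (1.83-fold) and Ccnb1 without them in this window (1.70-fold). Mad1l1, Mad2l1bp, Cenpc1, Cenpo and Cenpt, the 5 division genes not above their level without MNU, are among the 20. The printed Plk3 window, with neither element, belongs to a gene that was 3.20-fold lower, but it is a single chosen window. Kif1b, whose window holds CCAAT letters, was 3.63-fold lower. Over all measured genes the medians were -0.001 with CCAAT letters and -0.018 without them.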

How the data were processed

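RNA from mouse thymus was sequenced in 4 libraries, 1 per group. The authors deposited 1 table of normalised counts per gene, a read signal that is not in whole numbers, with the method of normalisation not given in the sources used. Per the submitters' processing notes, TopHat2 2.0.8b, edgeR and mm9 were used, in roles those notes do not state. Sums per library were 32911400 to 34836300 units, and no counting interval is given because the values are not raw reads.

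Genes averaging 10 units or more were kept, differences were taken as log2(value + 10), and a gene was called at 2-fold, with Python 3.11.15, numpy 2.4.6 and pandas 2.3.3. The calculation was tested on simulated data with counting noise alone and planted changes larger than most differences reported here. That run checks the arithmetic and says nothing about variation between libraries or mice. With 1 library per group no test was run. Values in all libraries are given, by role, for the 3 genes with the largest difference with MNU in wild type, for any gene past 2-fold and for Mki67, Top2a, Ccnb1, Cdk1, Plk1, Aurka and Aurkb; other genes that are named were chosen after their values were seen. The genes, roles and lists were chosen with earlier results of these data known. Alternatives were other pseudocounts, filters, scalings and thresholds, the division roles alone, subtraction of the shared profile, and omission of genes that share at least 5% of their exon bases with another gene.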

Additional observations from a re-analysis of the deposited data

Results flagged for a closer look

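Cenpv was higher with MNU in wild type (log2 difference 2.92) and lower with MNU in knockout (ratio 0.490), so the change in knockout minus that in wild type was -3.92, and -3.25 with the shared profile subtracted from knockout without MNU. Over the 77 genes, the median change was -0.07 in knockout and 0.62 in wild type, and the difference of these 2 medians was -0.70. Both stand out because the genotypes differ in sign as deposited. For the 77 genes that holds only as deposited, since with the shared profile subtracted the knockout median was 0.052 and the difference of the medians -0.57. With 1 library per group neither difference was tested.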

How the results depend on the processing

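No paired analysis was possible because each group held 1 library. Other pseudocounts, filters, thresholds and gene lists cannot reverse the direction of a gene. Under the other scalings and the subtraction of the shared profile, which can, no direction of a called gene reversed. The subtraction bears only on comparisons with knockout without MNU, where Cenpv was the only called gene. Signs of genes below the threshold did change with it. Of the 61 division genes, those above 0 went from 9 to 48 with MNU in knockout. In knockout against wild type without MNU they went from 34 to 6. At a 4-fold threshold, of the 77 genes 1 was higher and 0 lower with MNU in wild type, 0 lower with MNU in knockout, 1 higher and 1 lower in knockout against wild type with MNU, and 0 higher in knockout against wild type without MNU. The share of all genes past 4-fold was not taken, so these counts cannot be set against it. At 1.5-fold the counts were 41 higher with MNU in wild type, 46 lower in knockout against wild type with MNU, and 1 higher in knockout with MNU against wild type without MNU. Over the 61 division genes alone, 0 were lower with MNU in wild type, 0 lower with MNU in knockout, 0 higher in knockout against wild type with MNU and 0 higher in knockout against wild type without MNU. With the shared profile subtracted from knockout without MNU, 0 of 77 were lower with MNU in knockout (median log2 difference 0.052), against 198 of all 10587 genes. In knockout against wild type without MNU 0 of 77 were higher (median -0.128), against 182 of 10587. The median over the genes of the change in knockout minus that in wild type was then -0.54, against -0.71 as deposited. A pseudocount of 40 left 0 lower with MNU in knockout. Of 385 gene-level values, 4 lost their call under upper-quartile scaling and 3 under the pseudocount of 40. An alternative chosen after seeing the data left out the 8 genes that share at least 5% of their exon bases with another coding gene. The 345 remaining values kept their calls, which this omission could not change, since each call rests on the gene's own values. Depth is not known in reads, and 1 library per group gives no error.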
